A study of Mus musculus with 4 samples.

Results

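Neuroblast-marker spots are Visium spots with an excess of transcripts of 8 genes of newborn inhibitory neurons (*Dcx*, *Sox11*, *Dlx1*, *Dlx2*, *Igfbpl1*, *Cd24a*, *Sp9* and *Top2a*). They made up 161 of the 7620 spots used in 4 brain sections. A spot was selected on these values: it held at least 500 unique molecular identifiers (UMIs), at least 4 of the 8 genes were detected in it, and its score was at least 3. The score is the summed UMIs of the 8 genes minus the number that the spot's total and the section-wide share of these genes predict, divided by the square root of that predicted number. The other 7459 spots of the same sections served as the comparison, and a set of 91 spots chosen in the same way by ependymal genes was used for another comparison.

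Visium slides carry barcoded spots that capture polyadenylated RNA from the tissue above them, so that a spot reports a small region holding several cells, and each UMI stands for 1 captured transcript. All 4 sections were 10-µm fresh frozen brain sections of Nf1+/- mice, which carry 1 inactivated copy of *Nf1*, the gene of the RAS regulator neurofibromin that is mutated in neurofibromatosis type 1. No wild-type section was used here, so every comparison is between spots within Nf1+/- tissue. The labels give neither age nor treatment, do not name the *Nf1* allele, and are silent on how many mice were sectioned. Each n is therefore a number of sections, and the p-values refer to these 4 sections only. The tests pool information on spread over genes, so a p-value does not measure the spread of its own gene between the sections alone.

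Neuroblasts arise in the wall of the lateral ventricle. There, stem cells that share features with astrocytes give rise to fast-dividing transit-amplifying cells, and these give rise to neuroblasts that migrate in chains to the olfactory bulb and become inhibitory interneurons. Doublecortin (*Dcx*) binds microtubules in migrating neurons. *Sox11* is a transcription factor of immature neurons. *Dlx1*, *Dlx2* and *Sp9* are transcription factors of the inhibitory lineage that are not limited to newborn cells. *Cd24a* encodes a surface protein of neuroblasts that ependymal cells also carry, and *Top2a* encodes a topoisomerase of dividing cells. The ventricle wall also holds ciliated ependymal cells, and the choroid plexus lies within the ventricle.

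Sections 1 to 4 held 38 of 1537 spots (2.47%, exact Clopper-Pearson 95% interval 1.76 to 3.38%), 67 of 2358 (2.84%, 2.21 to 3.59%), 40 of 2294 (1.74%, 1.25 to 2.37%) and 16 of 1431 (1.12%, 0.640 to 1.81%). The mean share was 2.04% ± 0.767 (SD, n = 4 sections), and section 4 had the fewest of these spots. The intervals cover counting error only. The median spot held 14029, 17892, 11471.5 and 8560 UMIs among neuroblast-marker spots and 14964, 15178, 8812.5 and 12258 UMIs among the others, so the chosen spots were deeper in sections 2 and 3 and shallower in sections 1 and 4. Between 427 and 1989 spot barcodes were shared by each pair of sections; a section was therefore treated as its own library and no spot was matched by barcode. The neuroblast-marker spots held 584749, 1207243, 439107 and 155925 UMIs in all and were fewest in section 4.

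The score rested on few molecules. The median spot held 7 UMIs of the 8 genes in sections 1 to 3 and 5.5 in section 4. Of the 161 spots, 98 had 4 of the genes, 40 had 5, 16 had 6, 7 had 7 and none had all 8. The spots nearest to the limit scored 3.18, 3.06, 3.02 and 4.62 in sections 1 to 4, while the best-scoring spots below 3 with enough genes reached 2.86, 2.92, 1.97 and 2.94. Another 169 spots passed the score with fewer than 4 genes and were counted with the others.

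The 8 genes are given as a description, since they chose the spots. *Dcx* was counted at 23.9, 34.0, 18.2 and 25.7 CPM (the gene's UMIs per 1000000 UMIs of the spots summed in a section) in the neuroblast-marker spots of sections 1 to 4, and at 7.86, 8.44, 7.65 and 9.42 CPM in the others. *Dlx1* stood at 87.2, 73.7, 159 and 160 CPM against 9.0 to 11.3 CPM. *Igfbpl1*, whose product resembles insulin-like growth factor-binding proteins, was at 83.8, 64.6, 102 and 89.8 CPM against 1.57 to 4.64 CPM. The genes did not contribute equally. *Sp9* and *Dlx1* were detected in 80.1% and 78.9% of the chosen spots, *Igfbpl1* in 65.8%, *Cd24a* in 56.5% and *Sox11* in 55.9%. *Dcx*, the most widely used neuroblast marker, was detected in 36.0% and *Top2a* in 13.04%, and *Top2a* had 0 UMIs in section 4.

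**Figure D1:**
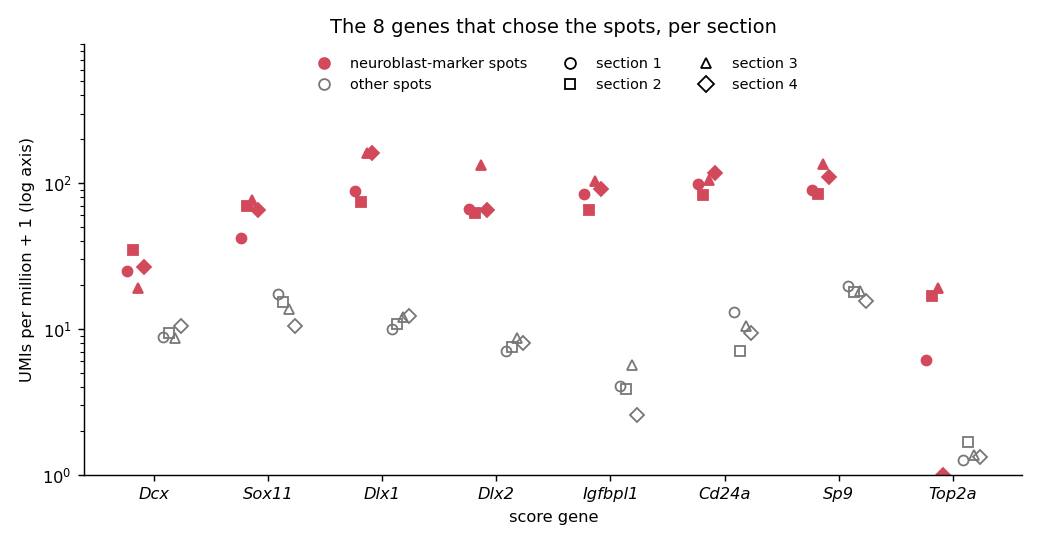
CPM plus 1 (log axis) of the 8 score genes in neuroblast-marker spots (filled) and other spots (open), with a marker shape for each of the 4 sections. Filled symbols lie above open ones for every gene except *Top2a* in section 4, which was at 0.

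Genes that the score did not use were then examined, and the chosen spots differed from each other in some of them. Whether the spots form separate classes was not tested. The excess with the smallest p-value was in *Zic1* (chromosome 9, 91358058 to 91365768 in the RefSeq annotation of GRCm38.p6), a zinc-finger transcription factor. It stood at 313, 245, 362 and 411 CPM in the neuroblast-marker spots and at 38.4, 33.6, 34.3 and 19.6 CPM in the others (log2 fold change 3.15 ± 0.11, SE; edgeR adjusted p = 7.85e-182). *Prkcd* (chromosome 14, 30595353 to 30626414), which encodes protein kinase C delta, was at 193, 189, 344 and 180 CPM against 22.3, 22.2, 25.7 and 13.2 CPM (3.23 ± 0.12, edgeR adjusted p = 3.48e-161). *Lbhd2* (chromosome 12, 111402049 to 111412092) was at 204, 209, 353 and 263 CPM against 18.7, 25.01, 33.2 and 9.53 CPM (3.34 ± 0.12, edgeR adjusted p = 3.05e-176). None of the 3 genes was in the lists of neuroblast, dividing or stem cell genes. Their summed UMIs varied widely among the chosen spots. A limit of 4 UMIs per 10000 for the 3 genes together, set after these values were seen and used only for description, left 97 spots at or above it (25, 36, 24 and 12 in sections 1 to 4) and 64 below it (13, 31, 16 and 4). Of the 161 spots, 30 held none of the 3 genes and 25 lay between 2 and 6 per 10000, near the limit. Among the other 7459 spots, 438 (5.87%) also reached it. The 2 sets are called *Zic1*/*Prkcd*/*Lbhd2*-high and -low spots here; no cell type is assigned to either.

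**Figure D2:**
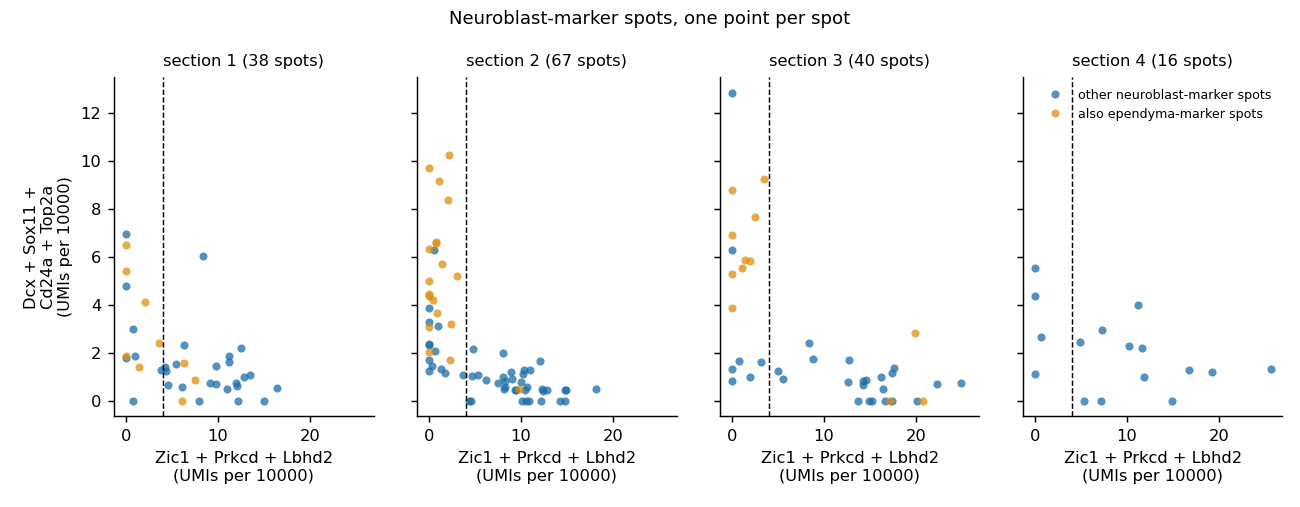
Each point is 1 neuroblast-marker spot of sections 1 to 4; the x axis gives the summed *Zic1*, *Prkcd* and *Lbhd2* UMIs and the y axis the summed *Dcx*, *Sox11*, *Cd24a* and *Top2a* UMIs, both per 10000 UMIs of the spot, with the dashed line at 4. The 64 spots left of the line hold most of those that were also ependyma-marker spots (33 of 40, orange), and the 97 spots to its right are mostly low on the y axis.

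Outside the score, genes of dividing cells were higher in the low than in the high spots, and so were those of ciliated cells in sections 1 to 3. This is given as a description. *Mki67*, which marks cycling cells, had 18 UMIs in the low and 0 in the high spots. *Ube2c*, which encodes a ubiquitin-conjugating enzyme of mitotic exit, had 30 UMIs in the low and 1 in the high spots. The chromatin protein gene *Hmgb2*, abundant in proliferating progenitors, was at 82.4, 111, 181 and 63.9 CPM in the low spots of sections 1 to 4 and at 19.3, 16.5, 3.45 and 9.18 CPM in the high spots. In sections 1 to 3 the low spots were also those rich in ependymal genes. The summed ependymal list was at 842, 1113 and 1800 CPM there, against 335, 79.5 and 173 CPM in the high spots. Section 4 ran the other way, with 107 CPM in the low and 184 CPM in the high spots. *Foxj1*, the regulator of motile cilia, stood at 76.5, 105, 100 and 21.3 CPM against 21.7, 2.74, 24.2 and 9.18 CPM. Its section 4 values were 1 UMI in each set. The summed level of the 25 dividing-cell genes was 118, 115, 114 and 147 CPM in the high spots, 330, 498, 756 and 234 CPM in the low spots and 109 to 113 CPM in the other spots. Among the score genes, *Cd24a* stood at 182, 186, 261 and 128 CPM in the low spots and at 62.7, 13.7, 24.2 and 110 CPM in the high spots of sections 1 to 4. *Sox11* was at 76.5, 134, 141 and 85.2 CPM against 26.5, 26.1, 41.4 and 55.1 CPM, and *Dcx* at 35.3, 50.2, 26.8 and 63.9 CPM against 19.3, 23.3, 13.8 and 9.18 CPM. All 3 were higher in the low spots of every section, although the 4 low spots of section 4 held only 3 UMIs of *Dcx*. *Top2a* had 28 UMIs in the low and 2 in the high spots. Because the score adds up all 8 genes, a spot poor in one of them had to be rich in another, so the opposition among the score genes follows in part from the selection.

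The score genes *Igfbpl1*, *Dlx1* and *Sp9* were higher in the high spots of every section. *Igfbpl1* was at 94.0, 83.7, 124 and 128 CPM in the high and at 58.9, 35.6, 60.2 and 0 CPM in the low spots. *Dlx1* was at 101, 87.8, 166 and 184 CPM against 53.0, 52.3, 147 and 107 CPM, whereas *Dlx2* was higher in the high spots of 2 sections and in the low spots of the other 2. *Sp8*, a transcription factor of olfactory bulb interneurons and their precursors that was not part of the score, had 63 UMIs in the high and 7 in the low spots. *Dlx6os1*, also outside the score, ran the other way, with 12.1, 30.2, 34.5 and 18.4 CPM in the high and 47.1, 50.2, 46.8 and 21.3 CPM in the low spots. *Gad1*, which encodes an enzyme that makes the inhibitory transmitter GABA, was at 677, 714, 929 and 844 CPM in the high spots, at 271, 395, 408 and 405 CPM in the low spots and at 318 to 380 CPM in the other spots. *Slit1*, a secreted guidance cue, was at 57.9, 56.2, 104 and 36.7 CPM in the high spots and at 0 to 13.4 CPM in the low spots. *Trpc4*, a cation channel gene, was at 60.3, 86.4, 72.5 and 36.7 CPM against 6.69 to 21.3 CPM. *Crhr2*, a receptor gene of the corticotropin-releasing factor family, had 24 UMIs against 3. *Trpc4* and *Crhr2* are known from mature neurons of the lateral septum; the files used here held no positions, so where these spots lay in the tissue was not tested.

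**Figure D3:**
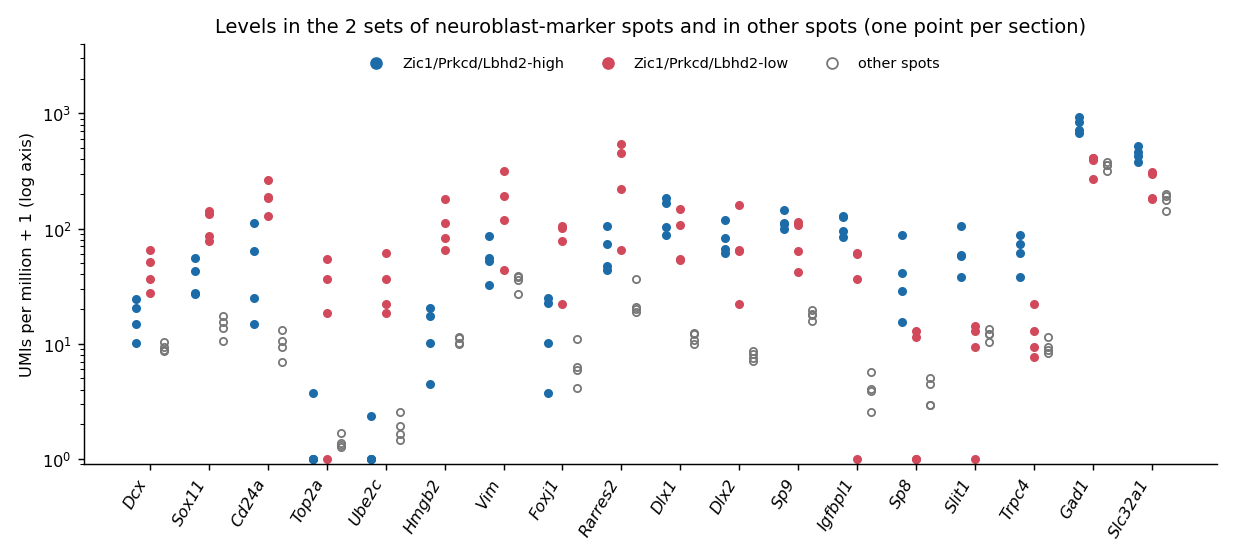
CPM plus 1 (log axis) of 18 genes, with 1 point for each of the 4 sections, in *Zic1*/*Prkcd*/*Lbhd2*-high spots (blue), -low spots (red) and other spots (open grey). Genes from *Dcx* to *Rarres2* are mostly higher in the low spots and those from *Igfbpl1* to *Slc32a1* in the high spots, while *Dlx2* is mixed.

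The score was also divided into sets of 4 genes. Spots chosen on *Dcx*, *Sox11*, *Cd24a* and *Top2a* alone (131 spots with 2 or more of them) had a log2 fold change over the remaining spots of 0.99 ± 0.18 (SE) for *Zic1*, 0.36 ± 0.23 for *Prkcd* (edgeR adjusted p = 0.411), 3.16 ± 0.30 for *Foxj1*, 3.96 ± 0.59 for *Ube2c* and 0.06 ± 0.10 for *Gad1* (edgeR adjusted p = 0.856). Spots chosen on *Dlx1*, *Dlx2*, *Sp9* and *Igfbpl1* alone (262 spots) gave 3.39 ± 0.10, 3.51 ± 0.10, 2.15 ± 0.26, 2.37 ± 0.51 and 0.89 ± 0.08 for the same genes. These choices share spots with each other and most of their comparison spots, were made after the values above were seen, and the difference between them was not tested.

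Over all genes, 1011 of 14138 tested had higher (7.15%) and 1269 lower counts (8.98%) in neuroblast-marker spots than in other spots, with an edgeR adjusted p-value under 0.05. The 8 score genes were left out. Every such difference describes what accompanied the 8 genes in the same spots. In a spot, fewer cells of a type and less RNA per cell cannot be told apart. The median log2 fold change over all tested genes was -0.02, and with scaling to total UMIs it was 0.10, a shift of 0.12 that turned the split into 1452 higher and 879 lower (62.3% of calls higher instead of 44.3%). Without section 2, which held the most neuroblast-marker spots, 625 genes were higher and 848 lower.

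Of 24 other genes of the neuroblast lineage, 23 passed the filter on low counts, 11 rose (47.8%), 2 fell and 10 were not called, and their median log2 fold change was 0.49. The summed level of the list was 1764, 1877, 1896 and 1809.7 CPM in the neuroblast-marker spots and 1805, 2033, 1975 and 1947 CPM in the others, lower in every section. *Sp8* showed the largest rise, from 1.92, 4.02, 3.43 and 1.94 CPM to 13.7, 28.2, 56.98 and 19.3 CPM (3.13 ± 0.35, SE; edgeR adjusted p = 1.72e-17). With spots chosen on *Dcx*, *Sox11*, *Cd24a* and *Top2a* alone, *Sp8* (0.52, edgeR adjusted p = 0.740), *Dlx5* (0.26, 0.735) and *Dlx6* (0.09, 0.923) were not called. *St8sia2*, which encodes the enzyme that adds polysialic acid to the adhesion molecule NCAM, rose from 1.36 to 2.54 CPM to between 6.63 and 12.8 CPM (1.98 ± 0.52). *Sox4*, the partner of *Sox11* in immature neurons, rose by 1.64 ± 0.23 but was lower than in the other spots of section 4, where it had 6.42 CPM. The inhibitory-lineage genes *Dlx5* (1.28 ± 0.21), *Dlx6os1* (0.96 ± 0.22) and *Dlx6* (0.83 ± 0.19) were higher in all 4 sections. The cyclin gene *Ccnd2* rose by 0.82 ± 0.13, with 44.9 against 45.3 CPM in section 4. The tubulin gene *Tubb3*, found in young and mature neurons alike, was at 267, 274, 285 and 359 CPM against 270, 326, 288 and 287 CPM (-0.17 ± 0.10, edgeR adjusted p = 0.326). *Stmn1*, which encodes a microtubule regulator abundant in immature neurons, fell from between 746 and 935 CPM to between 436 and 512 CPM (-0.96 ± 0.10, edgeR adjusted p = 3.62e-18), and *Tiam2* fell too (-0.95 ± 0.17). Among the chosen spots *Stmn1* was at 600, 757, 1204 and 511 CPM in the low and at 475, 318, 142 and 404 CPM in the high set.

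Genes of migration and guidance showed no common direction. Of 24, 23 were tested, 3 rose and 3 fell, and the median was -0.13. Over all tested genes, 7.15% rose and 8.98% fell. *Slit1* rose from 11.1, 11.3, 12.3 and 9.42 CPM to 44.5, 37.3, 72.9 and 25.7 CPM (1.90 ± 0.21). The receptor genes *Prokr2* (2.5 ± 0.60) and *Cxcr4* (2.34 ± 0.74), both of which guide migrating neuroblasts, rose on 17 and 10 UMIs, with none in section 4. In the other spots they stood at 0.628 to 1.84 CPM and 0.559 to 1.00 CPM. Both passed the filter on low counts in part through the chosen spots, so their rise follows in part from the filter. *Prokr2* had 16 UMIs in the *Zic1*/*Prkcd*/*Lbhd2*-high and 1 in the low spots, *Cxcr4* 3 and 7. *Prokr2* was not called with the *Dcx*, *Sox11*, *Cd24a* and *Top2a* score (0.35, edgeR adjusted p = 0.924). *Cxcr4* was not called with the *Dlx1*, *Dlx2*, *Sp9* and *Igfbpl1* score (1.20, edgeR adjusted p = 0.332). The Slit receptor gene *Robo2* fell from 58.4, 57.7, 56.2 and 53.8 CPM to 23.95, 29.8, 27.3 and 0 CPM (-1.28 ± 0.18). *Sema3a* (-1.09 ± 0.35) and the chemokine gene *Cxcl12* (-0.92 ± 0.25) fell as well.

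Genes of dividing cells were partly called higher. Of 25, 17 passed the filter, 9 rose, none fell and 8 were not called, with a median of 1.78 and a range from -0.86 to 3.48. The filter asks for a minimal CPM in part of the sums, and 1 UMI gives a high CPM in the small neuroblast-marker sums. A gene as scarce in other spots as *Ube2c* therefore passed mainly through the chosen spots. The absence of falls and the height of the median follow in part from this. Over all tested genes, 7.15% rose and 8.98% fell. *Ube2c* went from 0.918, 1.56, 0.649 and 0.471 CPM to 5.13, 14.9, 20.5 and 6.42 CPM (3.48 ± 0.54, edgeR adjusted p = 4.02e-09). Its value in section 4 was 1 UMI. *Hmgb2* went from 8.86 to 10.4 CPM to between 25.7 and 63.8 CPM (2.21 ± 0.22), *Ccna2*, a cyclin of S phase and mitosis, rose by 2.68 ± 0.65, and the replication gene *Mcm3* by 2.27 ± 0.57. *Mki67* and *Cdk1* did not pass the filter: they had 18 and 11 UMIs in the neuroblast-marker spots and 54 and 55 in the others. *Pcna*, which is also used in DNA repair, was at 61.6, 72.1, 107 and 51.3 CPM against 57.7 to 64.2 CPM (0.19 ± 0.14, edgeR adjusted p = 0.439). When ependyma-marker spots were left out of both groups, 2 of 15 of these genes rose and 1 fell (median 0.86), and over all genes 697 of 14018 were higher (4.97%) and 993 lower (7.08%).

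Of 20 genes of neural stem and transit-amplifying cells, 17 were tested, 9 rose and none fell (median 0.78), where 7.15% of all tested genes rose. *Sox2*, a transcription factor of neural progenitors that astrocytes also express, rose from 32.6, 32.5, 46.3 and 35.9 CPM to 73.6, 94.5, 139 and 109 CPM (1.35 ± 0.13, edgeR adjusted p = 1.72e-21). The glial and progenitor factor *Sox9* (1.14 ± 0.21), the intermediate filament gene *Vim* (1.38 ± 0.14), *Thbs4*, an extracellular matrix gene of astrocytes of the ventricle wall (1.63 ± 0.32), and the receptor genes *Notch1* (0.79 ± 0.28) and *Notch2* (0.95 ± 0.36) were among the others. The calls of *Notch1* and *Notch2* were lost in 15 of 23 and 15 of 22 alternatives. Astrocytes and ependymal cells express several of these genes. Without ependyma-marker spots, 2 of the 17 rose (median 0.41), against 4.97% of all genes.

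**Figure D4:**
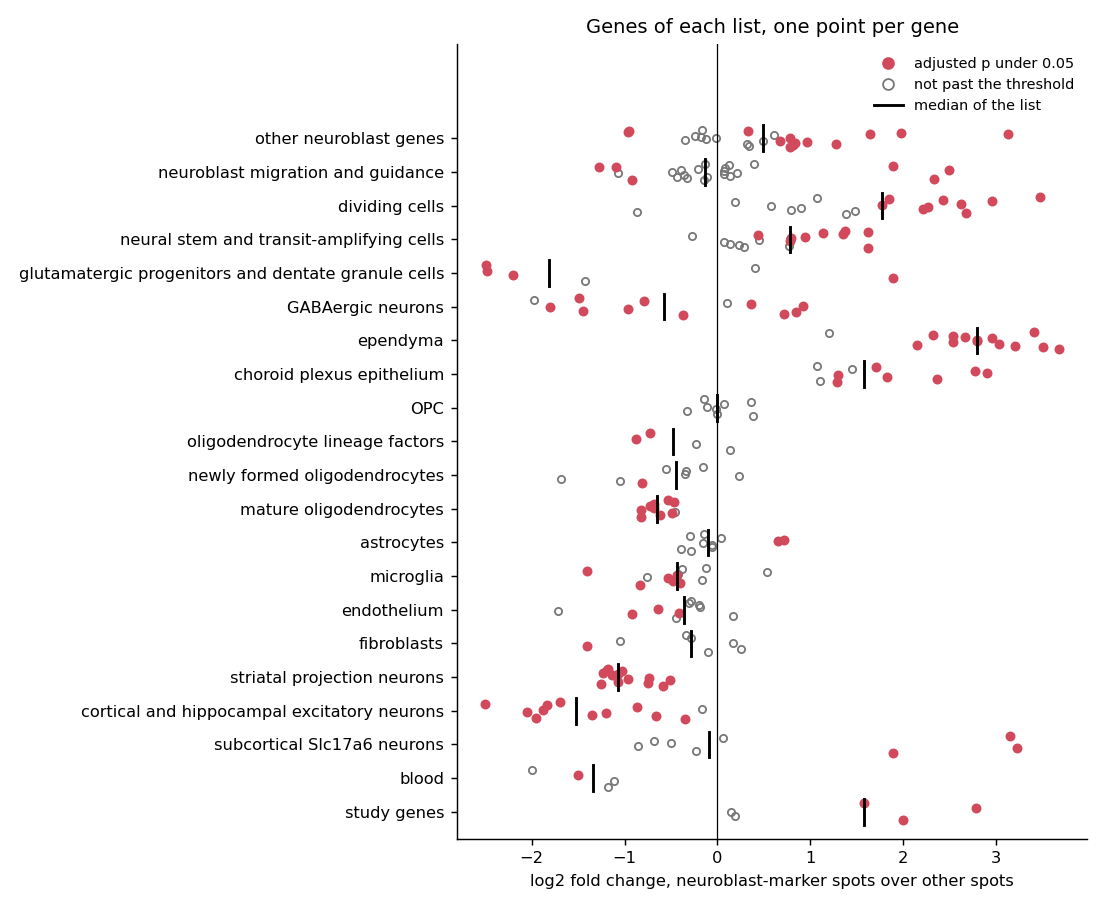
Log2 fold change of neuroblast-marker over other spots for each tested gene of 21 lists; filled points passed an adjusted p of 0.05, open points did not, and bars mark list medians. The ependymal, choroid plexus, dividing and stem cell lists lie mostly to the right of 0, the striatal and cortical neuron lists to its left, and the OPC list on both sides of 0 with no filled point.

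Ependymal genes accompanied the selection. Of 14, all passed the filter, 13 rose (against 7.15% of all tested genes) and the median was 2.79. The summed level of the list was 482, 489, 726 and 160 CPM in the neuroblast-marker spots of sections 1 to 4 and 114, 38.8, 50.7 and 58.0 CPM in the others. *Ccdc153*, a gene of ciliated cells, was at 42.8, 72.9, 116 and 0 CPM against 9.22, 3.05, 5.75 and 3.77 CPM, so that section 4 had none. *Mia* was at 116, 54.7, 72.9 and 77.0 CPM against 22.5, 5.42, 6.58 and 12.5 CPM (2.79 ± 0.18). *Tekt4* did not pass the threshold (1.20 ± 0.61, edgeR adjusted p = 0.194). Of the neuroblast-marker spots, 9, 19, 12 and 0 in sections 1 to 4 also met the ependyma rule (23.7, 28.4, 30.0 and 0%), compared with 0.567 to 3.07% of the other spots. Without ependyma-marker spots 8 of 13 ependymal genes still rose, and their median was 1.59. Of the 14 genes of this list, 8 had chosen the spots left out, so these values are a description only. Of the neuroblast genes, 7 rose and 3 fell without those spots. Over all genes tested in that setting, 4.97% rose and 7.08% fell.

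Choroid plexus genes rose as well, and their level differed between sections. Of 10, all were tested, 7 rose (against 7.15% of all tested genes) and the median was 1.58. Their summed level was 501, 53.0, 116 and 192 CPM against 150, 14.6, 17.8 and 78.3 CPM. *Otx2*, a transcription factor of choroid plexus epithelium, was at 34.2, 4.97, 20.5 and 38.5 CPM against 7.95, 0.391, 1.39 and 3.09 CPM (2.90 ± 0.41), and *Prlr*, the prolactin receptor gene, rose by 2.78 ± 0.35, with 46 of its 51 UMIs in the *Zic1*/*Prkcd*/*Lbhd2*-high spots, 18 and 9 of them in sections 2 and 3. *Tmem72*, *Slc4a5* and *F5*, which with *Folr1* mark that epithelium, had 0 UMIs in the neuroblast-marker spots of sections 2 and 3. At least 3 of the 10 markers were present in 25 of the 38 chosen spots of section 1, but in 1, 3 and 2 of those of sections 2 to 4. These were 65.8, 1.49, 7.5 and 12.5% of the chosen spots, compared with 10.9, 0.131, 0.177 and 5.23% of the other spots.

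Of the 5 genes that the study names, 3 rose and none fell, where 7.15% of all tested genes rose and 8.98% fell. The paper reported *Ttr*, *Enpp2*, *Rarres2* and *Ecrg4* as higher in focal hyperdensities of oligodendrocyte precursor cells than outside them. It followed up *Ecrg4*, *Enpp2* and *Ttr* by immunofluorescence or in situ hybridization, and found *Nf1* mRNA too low to compare. The groups compared there differ from those compared here. *Rarres2*, the gene of the chemoattractant chemerin, was at 137, 205, 232 and 51.3 CPM against 35.5, 19.8, 18.96 and 17.95 CPM (2.79 ± 0.12, edgeR adjusted p = 1.28e-108). *Ecrg4*, which encodes a secreted peptide precursor, rose by 2.00 ± 0.16. *Ttr*, the transthyretin gene and the most abundant transcript of choroid plexus, was at 27569, 42.3, 688 and 4479 CPM against 11840.4, 5.81, 60.4 and 3731 CPM (1.58 ± 0.13). *Enpp2*, which encodes the enzyme autotaxin, was at 1574, 63.8, 132 and 494 CPM against 617, 124, 141 and 400 CPM (0.19 ± 0.11, edgeR adjusted p = 0.288), being higher in sections 1 and 4, lower in sections 2 and 3, and called lower without section 1 (-0.41, edgeR adjusted p = 0.0290) but higher without section 2 (0.53, edgeR adjusted p = 1.98e-04). *Nf1* had 17 UMIs in the neuroblast-marker spots, at 10.3, 4.97, 9.12 and 6.42 CPM against 7.78, 5.08, 6.03 and 6.12 CPM (0.14 ± 0.42, edgeR adjusted p = 0.895), and a difference was not detectable at this depth. In *Zic1*/*Prkcd*/*Lbhd2*-low spots *Rarres2* stood at 218, 452, 542 and 63.9 CPM, and in the high spots at 104, 42.5, 72.5 and 45.9 CPM.

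*Pdgfra* (chromosome 5, 75151322 to 75198206), the growth factor receptor that marks oligodendrocyte precursor cells (OPCs), was at 27.4, 24.03, 29.6 and 38.5 CPM in the neuroblast-marker spots of sections 1 to 4 and at 28.1, 28.1, 23.8 and 34.7 CPM in the others. The groups overlapped, and the log2 fold change was -0.14 ± 0.20 (SE; edgeR adjusted p = 0.738) on 64 UMIs. *Olig2* (chromosome 16, 91225550 to 91228677), a transcription factor of the oligodendrocyte lineage that transit-amplifying cells can also express, was at 11.98, 10.8, 9.12 and 44.9 CPM against 23.2, 21.0, 23.8 and 25.9 CPM. It was lower in 3 sections and higher in section 4, on 31 UMIs in all, and the fit called it lower (-0.88 ± 0.26, edgeR adjusted p = 0.00611). That call was lost in 13 of 23 alternatives, among them DESeq2 (-0.77, adjusted p = 0.250) and leaving out section 1 (-0.81, edgeR adjusted p = 0.0504), section 2 (-0.77, 0.164) or section 3 (-0.73, 0.0875). By score range, *Olig2* had 8 UMIs in the 65 spots scoring 3 to under 5, 16 in the 72 spots scoring 5 to under 10 and 7 in the 24 spots scoring 10 or more, and *Pdgfra* had 32, 23 and 9.

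**Figure D5:**
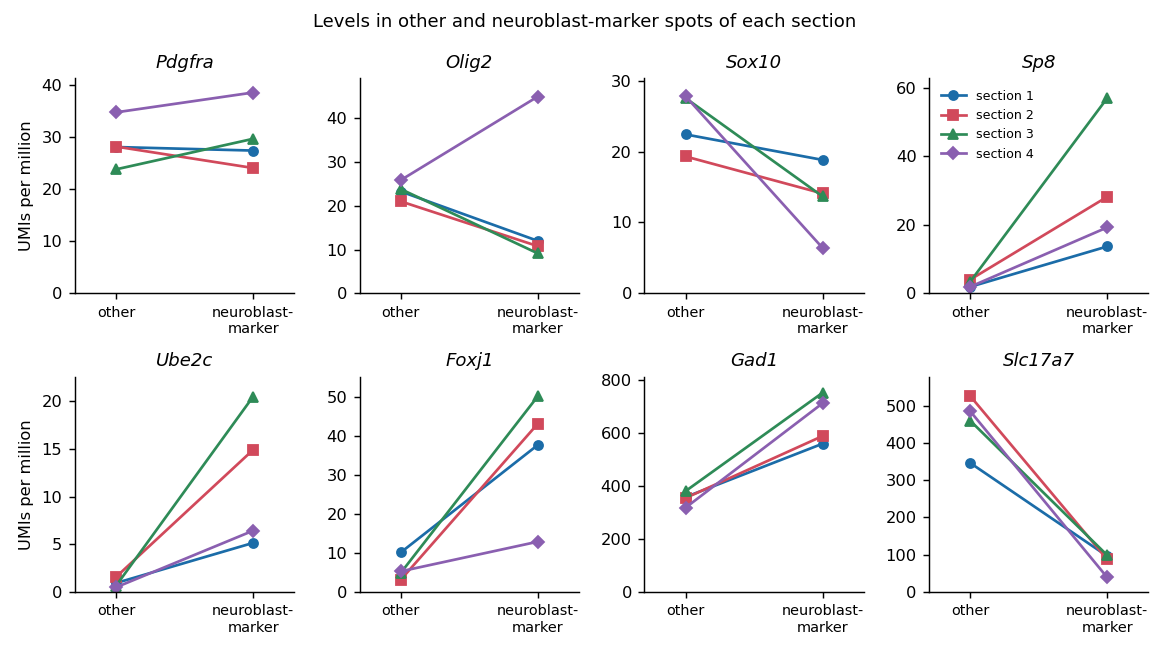
CPM (linear axes from 0) of 8 genes in the other spots (left) and neuroblast-marker spots (right) of each section, joined by a line for each of sections 1 to 4. *Pdgfra* lines run level or cross, *Olig2* falls in 3 sections and rises in section 4, *Sp8*, *Ube2c*, *Foxj1* and *Gad1* rise and *Slc17a7* falls in all 4. In the neuroblast-marker spots of section 4, *Ube2c* rests on 1 UMI and *Foxj1* on 1 UMI in each of the *Zic1*/*Prkcd*/*Lbhd2*-high and -low sets.

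None of the 8 OPC genes passed the threshold (median -0.01). Their summed level was 144, 126, 114 and 186 CPM in the neuroblast-marker spots against 133, 117, 111 and 137 CPM. Of 4 lineage factors, *Sox10* was called lower with *Olig2* (-0.72 ± 0.25, edgeR adjusted p = 0.0247), a call lost in 18 of 23 alternatives, and *Olig1* did not pass (-0.23 ± 0.12, edgeR adjusted p = 0.212). Of 8 genes of newly formed oligodendrocytes, *Bcas1* alone fell (-0.82 ± 0.16), where 8.98% of all tested genes fell. Of 10 genes of mature oligodendrocytes, 9 fell and the median was -0.65. Their summed level was 3395, 1503, 2204 and 3822 CPM against 4097, 2605.5, 4096 and 3598 CPM, and so was higher in section 4. The myelin basic protein gene *Mbp* was at 1463, 632, 934 and 1527 CPM against 1775, 1160.4, 1836 and 1536 CPM (-0.68 ± 0.10), a difference that was nearly absent in section 4.

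Of 12 genes of inhibitory neurons, 4 rose and 6 that mark neuron subtypes fell (median -0.58), where 7.15% of all tested genes rose and 8.98% fell. *Gad1* was at 559, 588, 752 and 712 CPM against 358, 354, 380 and 318 CPM (0.72 ± 0.10, edgeR adjusted p = 8.57e-12). *Gad2* (0.85 ± 0.10) and the vesicular transporter gene *Slc32a1* (0.93 ± 0.10) also rose. *Pvalb* fell from 101, 158, 199 and 212 CPM to 34.2, 43.1, 82.0 and 38.5 CPM (-1.81 ± 0.14). *Npy* (-0.96 ± 0.11), *Synpr* (-0.79 ± 0.13) and *Lhx6* (-1.45 ± 0.42) fell too. *Vip* (-1.49 ± 0.22) and *Calb1* (-0.37 ± 0.11) were called lower but were higher in section 4, at 115.5 against 52.9 CPM and 231 against 173 CPM, and the *Calb1* call was lost in 12 of 23 alternatives. The calretinin gene *Calb2*, found in olfactory bulb interneurons and in other neurons, rose from 46.4, 11.9, 17.4 and 22.0 CPM to 185, 21.5, 114 and 148 CPM (1.89 ± 0.15).

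Genes of mature forebrain projection neurons were depleted, where 7.15% of all tested genes rose and 8.98% fell. All 14 genes of striatal projection neurons fell (median -1.07). The summed level of this list was 1046, 1351, 1205 and 606 CPM in the *Zic1*/*Prkcd*/*Lbhd2*-high spots of sections 1 to 4. The low spots, at 3396, 3891, 3814 and 2067 CPM, lay nearer to the other spots, at 3727, 3960, 3695 and 2820 CPM. *Ppp1r1b*, the gene of the dopamine-signalling protein DARPP-32, went from 711, 711, 610 and 561 CPM to 337, 408, 262 and 160 CPM (-1.23 ± 0.11), and the dopamine receptor genes *Drd1* and *Drd2* fell by 1.07 ± 0.17 and 0.51 ± 0.16 on the log2 scale, the *Drd2* call being lost in 10 of 23 alternatives. *Ppp1r1b* was at 689, 671, 475 and 277 CPM in the *Zic1*/*Prkcd*/*Lbhd2*-low and at 193, 235, 152 and 110 CPM in the high spots. Of 12 genes of cortical and hippocampal excitatory neurons, 11 fell (median -1.52). *Slc17a7*, the vesicular glutamate transporter gene, went from 346, 526, 460 and 485 CPM to 95.8, 87.0, 98.0 and 38.5 CPM (-2.50 ± 0.13, edgeR adjusted p = 4.01e-83). *Tbr1* (-2.49 ± 0.21) and *Neurod2* (-2.49 ± 0.30), transcription factors of excitatory neurons, and *Neurod1* (-2.20 ± 0.63, 4 UMIs) fell among the 12 genes of glutamatergic progenitors and dentate granule cells, of which 6 were tested and *Calb2* rose. The summed level of that list, which holds *Calb2*, was 217, 49.7, 153 and 180 CPM in sections 1 to 4 against 142, 141, 142 and 178 CPM. It was lower in section 2 only. Of 8 genes of *Slc17a6* neurons of subcortical regions, *Zic1*, *Prkcd* and *Calb2* rose and none fell (median -0.09), while *Slc17a6* itself, the transporter gene of these neurons, did not pass the threshold (-0.68 ± 0.35, edgeR adjusted p = 0.188).

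Of 10 astrocyte genes, the gap junction gene *Gja1* (0.71 ± 0.11) and *Gfap* (0.65 ± 0.16) rose and none fell. Of 12 microglial genes, 6 fell (median -0.43), among them *Csf1r*, the receptor gene that microglia depend on (-0.53 ± 0.16), but with total-UMI scaling 1 fell. Of 10 endothelial genes 3 fell, among them the receptor gene *Flt1* (-0.92 ± 0.28). Of 7 fibroblast genes tested *Dcn* fell (-1.41 ± 0.43), and of 4 blood genes tested *Hbb-bs* fell (-1.50 ± 0.46, 9 UMIs). These calls of *Csf1r*, *Flt1*, *Dcn* and *Hbb-bs* were lost in 10 to 12 of 22 or 23 alternatives. Over all tested genes 7.15% rose and 8.98% fell, so single calls in these short lists are not read as a result for the list.

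By fold change, the 15 largest rises came mainly from genes low in other spots. Most passed the filter on low counts only with the help of the neuroblast-marker sums. In the other spots *1700019G24Rik* was at 1.49, 0.503, 0.742 and 0.576 CPM, and *Zfp474* at 0.786, 0.251, 0.464 and 0.0523 CPM. Such a gene was tested only because the chosen spots held it, so its place in this ranking follows in part from the filter. *1700019G24Rik* (4.22 ± 0.51), *Dnah10*, a dynein gene of motile cilia (4.18 ± 0.53), *1700001C02Rik* (3.96 ± 0.41), *Gm12315* (3.93 ± 0.51) and *1700024G13Rik* (3.85 ± 0.44) led, followed by *Hdc*, the histidine decarboxylase gene (3.82 ± 0.45). *Zfp474*, *Slc14a2*, *3300002A11Rik*, *Mapk15*, *Gm16364* (ENSMUSG00000086915), *Prr29*, *Ak7*, *Got1l1* and *Prdm12* followed with 3.61 to 3.73. *Dnah10*, *1700001C02Rik*, *3300002A11Rik*, *Mapk15*, *Prr29*, *Ak7* and *Got1l1* had 0 UMIs in the neuroblast-marker spots of section 4. Their positive ratio in that section rests on the 0.5 UMI added to each sum, and their CPM there was below that of the other spots. *Hdc* was at 32.5, 14.1, 22.8 and 6.42 CPM against 0.866 to 2.14 CPM, with 39 of its 47 UMIs in the *Zic1*/*Prkcd*/*Lbhd2*-low spots. *Prdm12*, a transcriptional regulator gene, was at 18.8, 29.0, 34.2 and 19.3 CPM against 0.314 to 3.15 CPM, with 57 of its 64 UMIs in the high spots.

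The 15 largest falls rested on very few UMIs and say little of size. *Tmem254a*, *Gm48992* and *Gm42865* had 0 UMIs in the neuroblast-marker spots, and were at least 2.40-fold, 2.12-fold and 1.90-fold lower there, taking 3 UMIs over the group as the floor. *Kazald1*, *C030013G03Rik*, *B230216N24Rik*, *Flt3*, *Adcyap1*, *Gm17322*, *Cideb*, *Qrfpr*, *Igfn1* and *Fam78a* had 1 or 2 UMIs there, with pooled ratios of 6.41- to 14.1-fold whose exact counting intervals spanned 1.47 to 557. The neurotrophin gene *Bdnf* fell from 8.08, 12.5, 16.5 and 14.7 CPM to 1.71, 0.83, 4.56 and 0 CPM (-2.97 ± 0.54, 4 UMIs), and *Nupr1*, a stress-response gene, fell from between 19.1 and 23.2 CPM to between 1.71 and 6.42 CPM (-3.00 ± 0.40, 7 UMIs).

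Against the 91 ependyma-marker spots that were not neuroblast-marker spots (46, 13, 17 and 15 in sections 1 to 4), 40 of 5696 genes tested were higher in neuroblast-marker spots (0.702%) and 96 lower (1.69%) by edgeR, with the 16 score genes of both classes left out. The higher ones included those of the *Zic1*/*Prkcd*/*Lbhd2*-high set. *Lbhd2* was at 204, 209, 353 and 263 CPM in neuroblast-marker spots and at 41.7, 87.4, 42.6 and 0 CPM in ependyma-marker spots (2.14 ± 0.36, edgeR adjusted p = 0.0196), *Prkcd* rose by 1.68 ± 0.26, *Zic1* by 1.39 ± 0.25, *Slc32a1* by 1.46 ± 0.32 and *Gad1* by 1.31 ± 0.24. *Rasd1*, a Ras-related gene (2.25 ± 0.29), *Rerg* (2.24 ± 0.43), the receptor genes *Adra2a* (2.02 ± 0.39) and *Oprl1* (1.88 ± 0.40), *Gng4*, *Col25a1* and *Slc8a1* completed the 10 largest rises. The falls were led by *2900040C04Rik* (-3.06 ± 0.41), *Ecrg4* (-2.86 ± 0.44), *Calml4* (-2.68 ± 0.42) and *Enpp2* (-2.63 ± 0.57), followed by *Lbp*, *Folr1*, *Hemk1*, *Cryzl2* and *Emb* with -2.43 to -2.13. All 5 tested choroid plexus genes and 2 of 3 tested ependymal genes, *Mia* and *Enkur*, were lower, and none of 16 tested neuroblast genes outside the score was called. Both groups were chosen by marker genes, so differences in genes that accompany those markers follow in part from the selection. *Pdgfra* was at 27.4, 24.03, 29.6 and 38.5 CPM against 44.3, 41.4, 34.1 and 68.7 CPM (-0.89 ± 0.30, edgeR adjusted p = 0.143). The number of calls changed strongly when a section was left out. Without section 1 edgeR called no gene (137 higher and 158 lower at an unadjusted p under 0.05), and without section 3 none either (286 and 472). The most genes were called without section 2. The cause was not tested, and a gene not called here is not shown to be equal in both groups. DESeq2 on all 4 sections called 33 higher and 80 lower.

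Within the neuroblast-marker spots, the lists changed with the score. Their levels are a description, since the score chose the spots. The summed level of the 25 dividing-cell genes, which do not include *Top2a*, was 106, 109, 50.02 and 120 CPM in spots scoring 3 to under 5 in sections 1 to 4, close to the 109 to 113 CPM of the other spots. It was 256, 227, 266 and 187 CPM at scores of 5 to under 10, and 330, 879, 908 and 0 CPM at 10 or more, section 4 having 1 spot in the lowest and 1 in the highest range. The ependymal list followed the same order in sections 2 to 4, with 128, 100 and 120 CPM at the lowest scores and 1672, 1629.8 and 228 CPM at the highest, whereas section 1 had 440 CPM at the lowest scores, 420 CPM in the middle range and 1079.5 CPM at the highest. The list of *Slc17a6* neurons, which holds *Zic1* and *Prkcd*, had 686, 551, 859 and 1561 CPM at the lowest scores and 969, 177, 640 and 1251 CPM at the highest.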

How the data were processed

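The authors ran Space Ranger 1.3.1 on mm10 (per the file headers and the submitters' processing notes) and deposited unnormalised UMI counts for each spot; annotation and aligner settings are not given in the sources used here. Spots under 500 UMIs were left out (48 of 7668). The sections held 19261710 to 37002379 UMIs. Counts of neuroblast-marker and other spots were summed within each section, giving 8 sums. These were tested in R 4.3.3 with edgeR 4.0.16: TMM scaling, filterByExpr, a quasi-likelihood F test with a term for section, and Benjamini-Hochberg adjustment over every tested gene. The filter works on CPM, so genes scarce in other spots passed it mainly if neuroblast-marker spots held them. SE is |log2 fold change| over the square root of F. Section pairs the groups because both come from the same tissue; deviations of the paired sums from their group means correlated at 0.100 to 0.216 (-0.0142 to 0.269 in the ependyma comparison).

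Ependyma-marker spots were chosen by the same score on *Foxj1*, *Ccdc153*, *Tmem212*, *Dynlrb2*, *Tekt1*, *Ak7*, *Pifo* and *Rsph1*. All sections differed from each other by more than sampling noise (chi-square over its degrees of freedom 15.8 to 60.7), and each counted once. Genes named are the study's 5, *Pdgfra*, *Olig2*, genes of the marker lists, and the 15 largest rises and 15 largest falls (10 each in the ependyma comparison) among genes with an adjusted p under 0.05, at least 50 UMIs and 1 sign in all 4 sections (0.5 UMI added to each sum); a few of these are not reported here. *Lbhd2*, *Trpc4* and *Crhr2* were chosen after their values were seen. The members and lists were chosen with earlier results of these data known. Positions are RefSeq's. Alternatives were other score and detection limits, other score genes, other spot filters, matched other spots, total-UMI scaling, no filter on low counts, DESeq2 1.42.0, no block, and each section left out. Leaving out ependyma- and choroid plexus-marker spots together and the scores from 4 genes were chosen after seeing the data.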

Additional observations from a re-analysis of the deposited data

Results flagged for a closer look

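In 12 of 131 values compared over the 4 sections (chance gives about 1 in 20, or 6.55), the highest or lowest section lay far from the other 3. Values are log2 ratios of neuroblast-marker over other spots with 0.5 UMI added to each sum. Section 4, with 16 neuroblast-marker spots, gave 6 of the 12. *Olig2* was at 0.89 there and between -1.21 and -0.86 in the others, *Robo2* at -4.07 (others -1.24 to -0.93), and *Nupr1* at -0.99 (others -2.93 to -2.64). *Thbs4* was at 0.90 in section 4 (others 1.85 to 2.01) and *Gad2* at 1.46 (others 0.85 to 0.94). The median of the blood list was 1.07 in section 4, where those genes had no UMI in neuroblast-marker spots, so that the value rests on the added 0.5 UMI.

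Section 3 stood apart for *Prokr2* at 4.11 (others 2.25 to 2.34), *Mki67* at 5.44 (others 3.24 to 3.25), the median of the choroid plexus list at 3.05 (others 1.62 to 1.79) and *Tmem72*, a member of that list, at 3.30 (others 1.44 to 1.72). *Tmem72* had 0 UMIs in the neuroblast-marker spots of sections 2 and 3, and *Prokr2*, *Mki67* and *Robo2* had 0 UMIs in those of section 4. The values of these genes there rest on the added 0.5 UMI. Section 1 stood apart for *Otx2* at 2.14 (others 3.73 to 3.94) and *Gm16364* at 2.61 (others 4.71 to 5.06). In that section 25 of 38 neuroblast-marker spots and 10.9% of the other spots held at least 3 choroid plexus markers. The causes were not tested.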

How the results depend on the processing

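The share of neuroblast-marker spots, 2.04%, became 1.23% with a score of at least 5, 4.0035% with 2 of the 8 genes detected and 0.785% with 5. The 1011 higher and 1269 lower genes became 523 and 690 with 5 genes detected, 485 and 599 with *Dlx1*, *Dlx2* and *Sp9* left out of the score, 545 and 788 without ependyma- and choroid plexus-marker spots, 576 and 662 with the score from *Dcx*, *Sox11*, *Cd24a* and *Top2a*, and 670 and 777 against other spots matched on total UMIs. The fit against matched spots tested 9331 genes and the main fit 14138, so their counts do not have the same base. DESeq2 called 656 lower genes. Leaving out 1 section gave 625 to 995 higher and 848 to 1179 lower. Section pairs the groups, and with no replicate block 786 genes were higher and 877 lower, and 34 and 89 in the ependyma comparison. Of the 96 genes named and called against other spots, the alternatives still called 51 (*Dlx1*, *Dlx2* and *Sp9* left out of the score) to 96 (all deposited spots).

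The *Olig2* call was lost with a score of at least 5 (-0.50), 2 (-0.41) or 5 (-0.61) genes detected, without *Cd24a* (-0.40) or *Dlx1*, *Dlx2* and *Sp9* (-0.50) in the score, without choroid plexus-marker spots (-0.75), with the score from *Dcx*, *Sox11*, *Cd24a* and *Top2a* (-0.54) or from *Dlx1*, *Dlx2*, *Sp9* and *Igfbpl1* (-0.0015), against matched spots (-0.70), with DESeq2 (-0.77), and in 3 of 4 fits with 1 section left out (-1.16 to -0.73 over the 4). The sign of *Pdgfra* turned with 2 genes detected (0.080) and, with *Olig1* (0.028) and *Tmem72* (-0.0061), with the *Dlx1*, *Dlx2*, *Sp9* and *Igfbpl1* score (0.0056). *Nf1* turned with a score of at least 5 (-0.14), without ependyma-marker spots (-0.22) and without choroid plexus-marker spots as well (-0.35). *Enpp2* turned without choroid plexus-marker spots (-0.13), without these and ependyma-marker spots (-0.15), and with the *Dlx1*, *Dlx2*, *Sp9* and *Igfbpl1* score (-0.10), and ran from -0.41 to 0.53 with 1 section left out. *Qrfpr*, on few UMIs, turned with the *Dcx*, *Sox11*, *Cd24a* and *Top2a* score (0.80). The causes were not tested.

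In the ependyma comparison, the 40 higher and 96 lower genes became 78 and 192 with an ependyma score of at least 5, 118 and 201 with spots that meet both rules left out, and 300 and 391 with no filter on low counts. With 1 section left out they ranged from 0 to 159 and from 0 to 359; no gene was called without section 1 or section 3, and the highest counts came without section 2. Section 4 held the fewest neuroblast-marker UMIs (155925).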
